A study of Mus musculus with 6 samples.

Results

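The 10 core genes of the circadian clock were followed on 6 whole-transcript arrays of mouse N2A cells, an established neuroblastoma line. They were taken by symbol, with 1 probe set each (a probe set is the group of array probes that measures a gene), and are 10 of the 19938 genes that had a probe set naming a single gene. All 10 lay above the array-wide median on every array and were among the 11424 genes tested. The control group was 3 cultures transiently transfected with a non-targeting hairpin vector, and the Pax6 knockdown group was 3 cultures transfected with a hairpin vector against Pax6, a transcription factor of brain and eye development. In both groups the hairpin was driven by the U6 promoter, 1.5 µg of vector was given, and RNA was taken 3 days later. The vector also carried an eGFP gene under the CMV promoter, and a single Pax6 construct was used, so the target and any off-target of that hairpin cannot be told apart. The methods of the study call the 3 arrays of a group biological replicates. The spread behind each p-value is that among the 3 cultures of each group, drawn by limma toward the typical spread of all tested genes. All values are deposited log2 RMA summaries, differences are knockdown minus control, and n = 3 arrays per group throughout.

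The clock is a feedback loop of transcription factors. BMAL1, the product of Arntl, pairs with CLOCK on E-box elements and drives the Period, cryptochrome and REV-ERB genes. The PER and CRY proteins then block BMAL1 and CLOCK, while the REV-ERB receptors, encoded by Nr1d1 and Nr1d2, repress Arntl and other genes through ROR elements, and NFIL3 represses genes that carry a D-box. Many kinds of cultured cells carry such oscillators, which drift apart between cells in a dish unless a stimulus aligns them. Each culture was sampled at a single time, and the hour of harvest was not given in the sources used here, so a change in mean level and a change in phase or rhythm strength cannot be told apart. Nor can fewer cells of a type be told apart from less RNA per cell in bulk RNA.

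Short clock elements were located in the promoters of the members, since these elements link the loops whose transcripts are described here. RefSeq sequence of assembly GRCm38.p6 was available for 9 of the 10 genes, as 13 windows from 250 bases before to 50 bases after a transcript start. The motifs were the E-box CACGTG, the E-prime box CACGTT, the D-box as TTATGTAA or TTACGTAA, the core AGGTCA of REV-ERB and ROR elements and the cAMP response element TGACGTCA, each on both strands, and 0 matches overlapped another. The stretches that hold a match are shown 5′ to 3′ on the strand of the gene, with the matched letters in capitals.
Arntl, chr7:113207530-113207559, plus strand: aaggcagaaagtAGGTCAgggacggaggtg
Nfil3, chr13:52981040-52981081, minus strand: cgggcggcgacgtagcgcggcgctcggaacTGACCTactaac
Nr1d2, chr14:18239148-18239213, minus strand: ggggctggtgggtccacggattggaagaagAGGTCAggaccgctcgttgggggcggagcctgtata
Clock, chr5:76303586-76303651, minus strand: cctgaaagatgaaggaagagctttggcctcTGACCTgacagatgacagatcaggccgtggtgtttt
Per1, chr11:69098753-69098847, plus strand: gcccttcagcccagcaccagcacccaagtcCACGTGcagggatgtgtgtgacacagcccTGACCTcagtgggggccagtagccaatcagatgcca
Cry1, chr10:85185079-85185163, minus strand: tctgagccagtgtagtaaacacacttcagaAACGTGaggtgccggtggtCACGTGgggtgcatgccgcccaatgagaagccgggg
Cry2, chr2:92434200-92434265, minus strand: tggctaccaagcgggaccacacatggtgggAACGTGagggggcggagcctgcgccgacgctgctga
Nr1d1, chr11:98775378-98775435, minus strand: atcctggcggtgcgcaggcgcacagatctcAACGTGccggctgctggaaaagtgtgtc
Per3, chr4:151044786-151044900, minus strand: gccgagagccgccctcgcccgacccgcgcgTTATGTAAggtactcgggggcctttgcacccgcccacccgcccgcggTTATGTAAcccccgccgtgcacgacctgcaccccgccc

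The core AGGTCA, or its reverse complement TGACCT, was present for 5 genes (Arntl, Nfil3, Nr1d2, Clock and Per1) in 5 of 13 windows. Of all 32851 promoter windows 16.3% hold it. Some genes had several transcript starts, as 9 genes gave 13 windows, and positions count from the start of the window that holds the match. In Nfil3 the core began at position -12, and in Arntl at position 32, inside the transcript. The only Arntl match was at start number 2 of that gene. The E-box was present in Per1 and Cry1, in 2 windows, against 7.15% of all windows. The E-prime box was present in Cry1, Cry2 and Nr1d1, in 3 windows, against 4.68%. The D-box was present 2 times in the Per3 window, at positions -205 and -158 from the start, against 1.06% of all windows with any. The cAMP response element had 0 matches in the 13 windows (1.79% of all windows). A match is a description of letters in these windows and not of binding.

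The RNA of the hairpin's target was lower in every knockdown array. For this knockdown the study reports a larger relative fall in PAX6 protein, by Western blot, which these RNA values do not measure. Pax6 lay at 8.79, 8.82 and 8.81 in control replicates 1, 2 and 3 and at 8.48, 8.30 and 8.50 in the knockdown replicates (log2 fold change -0.38, SE 0.071, limma adjusted p = 0.0382). Its call too was lost on leaving out control replicate 1, 2 or 3 (0.120, 0.180 and 0.141) or knockdown replicate 3 (0.126), with the same sign each time. The variance filter also ended the call (0.143). The array medians of all probe sets lay between 7.49 and 7.59. Of the 11 markers fixed for neuroblastoma and sympathetic neurons 9 could be read, and all 9 (Phox2a, Hand2, Gata3, Tubb3, Stmn2, Chga, Dbh, Th and Mycn) lay above the array-wide median on every array. Their summed linear signal was 35675 to 37057 in the control arrays and 33600 to 34479 in the knockdown arrays, and 2 of the 9 were lower by limma, where 3.88% of all tested genes were. These were Dbh, the enzyme that makes noradrenaline (log2 fold change -1.08, limma adjusted p = 0.00163), and Chga, a secretory granule protein (-0.30, adjusted p = 0.0463), named after their values were seen. Among markers of other cells, 1 of 5 astrocyte and oligodendrocyte genes (Mbp), 2 of 5 fibroblast genes (Col1a1 and Col1a2) and 1 of 4 macrophage genes (Cx3cr1) lay above the median on all arrays, and limma called none of them. The part of the marker difference in the values below was not tested.

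Of the 10 core clock genes, 3 were higher and 2 lower in the knockdown at a false discovery rate (FDR) of 10% by limma, adjusted over all 11424 tested genes. Arntl, Cry2 and Nfil3 rose, and Clock and Nr1d2 fell, while Nr1d1, Per1, Per2, Per3 and Cry1 did not pass. Among all tested genes 6.67% passed, 2.79% higher and 3.88% lower. The median absolute log2 fold change of the 10 genes was 0.27, beside 0.086 over all tested genes, and their signed median was -0.06, beside 0.017. Circadian rhythm is among the terms in the functional enrichment that the study ran on these same arrays, and the members were chosen with results known, so these counts are no independent evidence. The count was 0 without control replicate 2 or without Pax6 knockdown replicate 3, 1 (Nfil3) without control replicate 1 or 3, and again 5 without Pax6 knockdown replicate 1 or 2. Over all tested genes 319 were higher and 443 lower as reported. Those numbers were 8 and 43 without control replicate 2, and 7 and 49 without knockdown replicate 3. Without control replicate 1 they were 52 and 133, and without control replicate 3 31 and 128. Without knockdown replicate 1 they were 156 and 444, and without knockdown replicate 2 820 and 465. The direction of the 5 called core genes was the same in each of those fits.

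**Figure D1:**
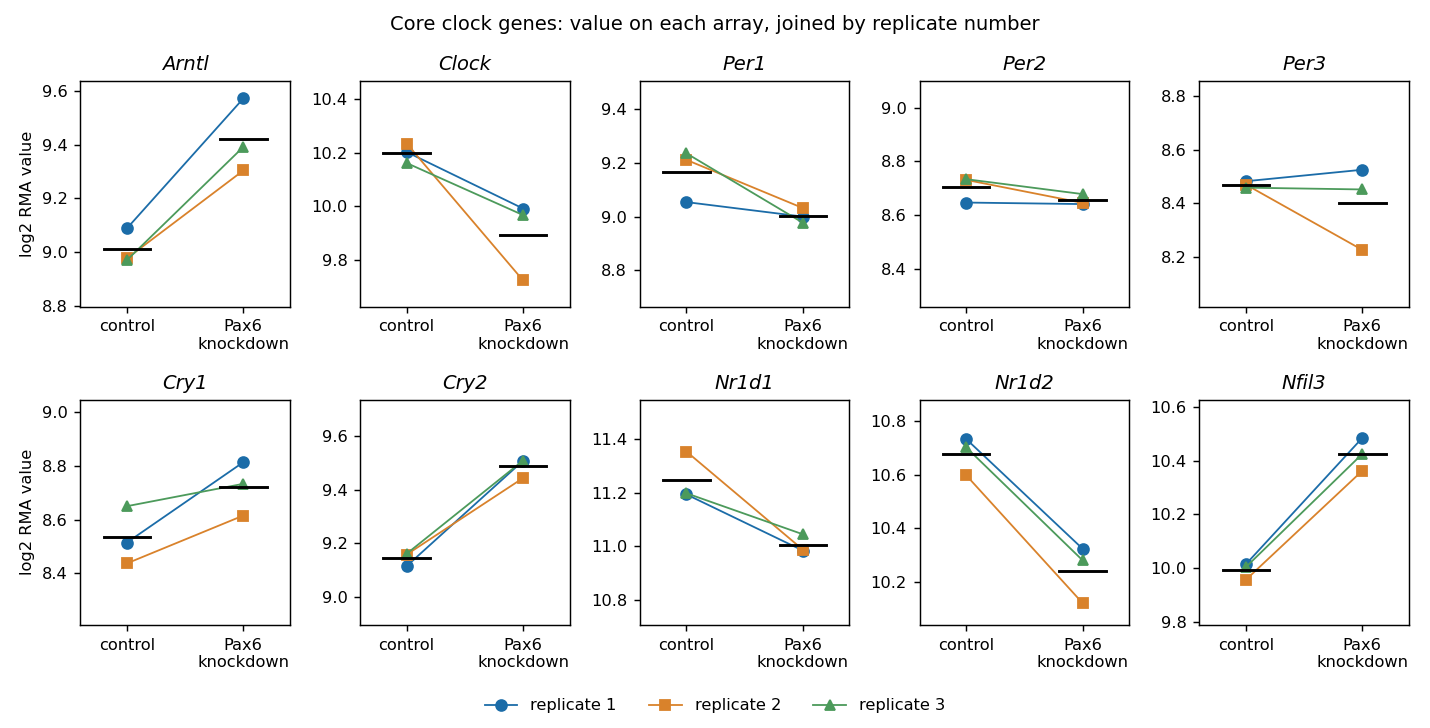
Log2 RMA value (vertical axis, each panel spanning the same range of log2 units) of the 10 core clock genes in control and Pax6 knockdown arrays (horizontal axis). Symbols and colours mark the replicate number, lines join arrays of the same number, and black bars are group means. For Arntl, Cry1, Cry2 and Nfil3 all 3 lines rise, and for Clock, Per1, Per2, Nr1d1 and Nr1d2 all 3 fall. For Per3 the lines run in different directions.

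The activators Arntl and Clock, whose proteins act as a dimer, moved in opposite directions. Arntl (chr7:113178471-113314126 in GRCm38.p6) lay at 9.09, 8.98 and 8.97 in control replicates 1, 2 and 3 and at 9.57, 9.30 and 9.39 in knockdown replicates 1, 2 and 3. The lowest knockdown array was 0.22 above the highest control array. Control arrays averaged 9.01 ± 0.067 (SD, n = 3) and knockdown arrays 9.42 ± 0.14 (SD, n = 3), a log2 fold change of 0.41 (SE 0.082, 95% confidence interval 0.22 to 0.60, limma adjusted p = 0.0452), or 33.0% more signal. Only 48 of the 11424 tested genes, Arntl included, had a rise of that size or more. Arntl was not called in fits that omitted control replicate 1, 2 or 3 (adjusted p = 0.112, 0.197 and 0.163) or knockdown replicate 3 (0.161), with no low-value filter (0.105) and with the variance filter (0.136), and its adjusted p ranged from 0.0013 to 0.197 over all alternatives.

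Clock (chr5:76209868-76305603) lay at 10.20, 10.23 and 10.16 in the controls and at 9.99, 9.72 and 9.97 in the knockdown. The groups did not overlap, and knockdown replicate 2 was the lowest array by 0.24. Clock changed by -0.30 on the log2 scale (SE 0.082, 95% interval -0.50 to -0.11, limma adjusted p = 0.0956) and was the called member closest to the threshold. On the linear scale its signal fell by 19.1%. With the replicate number as a block the adjusted p was 0.0468. Omitting control replicate 1, 2 or 3 ended the call of Clock (0.220, 0.312 and 0.217), as did omitting knockdown replicate 3 (0.216) and 3 of the 4 other filters, and the range over alternatives was 0.0111 to 0.312. Without knockdown replicate 2, the array that stood lowest, the fold change was -0.22 and the adjusted p 0.0855.

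The cryptochromes, the light-independent repressors of the mammalian clock, both had estimates above 0, and Cry2 passed. Cry2 (chr2:92403646-92434085) lay at 9.12, 9.16 and 9.16 in the controls and at 9.51, 9.44 and 9.51 in the knockdown. The 3 knockdown arrays lay within 0.065 of each other and at least 0.28 above every control array. Control arrays averaged 9.15 ± 0.026 (SD, n = 3) and knockdown arrays 9.49 ± 0.037 (SD, n = 3), a log2 fold change of 0.34 (SE 0.057, 95% confidence interval 0.21 to 0.47, limma adjusted p = 0.0278), or 26.7% more signal. Cry2 was no longer called in fits that omitted control replicate 1, 2 or 3 (0.101, 0.149 and 0.119), in that omitting knockdown replicate 3 (0.138) or under the variance filter (0.157), within a range of 0.000967 to 0.157. Cry1 (chr10:85131700-85185054) lay at 8.51, 8.44 and 8.65 in the controls and at 8.81, 8.62 and 8.73 in the knockdown. The groups overlapped, as knockdown replicate 2 was below control replicate 3. Cry1 changed by 0.19 on the log2 scale (SE 0.081, 95% interval 0.0008 to 0.37, limma adjusted p = 0.265), which did not pass. With array weights it did (adjusted p = 0.061), the only alternative in which Cry1 was called, and its adjusted p otherwise reached 0.587. The fit with array weights called 2639 of all tested genes higher, against 319 as reported.

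The Period genes, whose products carry the cryptochromes into the nucleus, gave 0 calls of 3 by limma at 10% FDR. For 1 of 3 (Per1) the unadjusted p was under 0.05. Where 6.67% of all tested genes were called, 0 of 3 does not set the Period genes apart. Per1 (chr11:69095108-69109965), the member best known for rapid induction by stimuli, lay at 9.05, 9.21 and 9.24 in the controls and at 9.0001, 9.03 and 8.98 in the knockdown. Every knockdown array was below every control array, by a gap of 0.022. Per1 changed by -0.16 on the log2 scale (SE 0.068, 95% interval -0.32 to -0.0069, limma adjusted p = 0.247). Array weights were the only alternative under which Per1 passed (adjusted p = 0.0105), within a range of 0.0105 to 0.551. That fit called 1600 of all tested genes lower, against 443 as reported. Per2 (chr1:91415977-91459351) lay at 8.65, 8.73 and 8.73 in the controls and at 8.64, 8.65 and 8.68 in the knockdown, and the groups overlapped. Its log2 fold change was -0.05 (SE 0.058), and the 95% confidence interval of -0.18 to 0.085 left room for a fall of up to 0.18 (limma adjusted p = 0.740). Per3 (chr4:150997018-151044707), which carries the pair of D-boxes shown above, lay at 8.48, 8.47 and 8.46 in the controls and at 8.52, 8.23 and 8.45 in the knockdown. Knockdown replicate 2 stood below the rest, and the knockdown SD was 0.16 against 0.012 in the controls. Per3 changed by -0.07 on the log2 scale (SE 0.084, 95% interval -0.26 to 0.12, limma adjusted p = 0.748), and its sign turned without that array (0.018, adjusted p = 0.879).

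The REV-ERB receptor genes both had estimates below 0, and Nr1d2 passed. Nr1d2 (chr14:18204056-18239106), which encodes REV-ERB beta, lay at 10.73, 10.60 and 10.70 in the controls and at 10.32, 10.12 and 10.28 in the knockdown. The highest knockdown array was 0.27 below the lowest control array. Control arrays averaged 10.68 ± 0.071 (SD, n = 3) and knockdown arrays 10.24 ± 0.11 (SD, n = 3), a log2 fold change of -0.44 (SE 0.075, 95% interval -0.61 to -0.26, limma adjusted p = 0.0303). On the linear scale its signal fell by 26.1%. Of all tested genes, 131 had a fall of that size or more. Nr1d2 lost its call if control replicate 1, 2 or 3 was omitted (0.116, 0.123 and 0.126), if knockdown replicate 3 was omitted (0.128) or under the variance filter (0.106), within a range of 0.00141 to 0.128.

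Nr1d1 (chr11:98767932-98775377), which encodes REV-ERB alpha, fell just outside the threshold. It lay at 11.19, 11.35 and 11.20 in the controls and at 10.98, 10.99 and 11.05 in the knockdown. The groups did not overlap, with a gap of 0.15, and control replicate 2 was the highest array. Nr1d1 changed by -0.24 on the log2 scale (SE 0.067, 95% interval -0.40 to -0.088, limma adjusted p = 0.10002). With the replicate number as a block Nr1d1 passed (adjusted p = 0.0514), as it did after a second quantile normalization (0.0693), with a variance trend (0.0576), with array weights (0.0169) and with the 75th percentile filter (0.0437). Nr1d1 did not pass in the other 11 alternatives, which include all 6 fits with 1 array left out (adjusted p 0.111 to 0.329). The highest of those 6 was without control replicate 2. Array centring (0.168), the mean of probe sets (0.101) and the other 3 filters also gave no call. The range over alternatives was 0.0169 to 0.333. Of all tested genes the replicate block called 17.9%, against 6.67% in the main fit. The difference between the changes of Nr1d1 and Nr1d2 was not tested.

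Nfil3 (chr13:52967209-52982878), the D-box repressor that opposes the activators DBP, TEF and HLF, had the lowest p of the 10 and ranked 62 among all tested genes by p. It lay at 10.01, 9.96 and 10.00 in the controls and at 10.49, 10.36 and 10.43 in the knockdown. The control arrays differed by no more than 0.058, and the knockdown arrays were at least 0.35 higher. Control arrays averaged 9.99 ± 0.031 (SD, n = 3) and knockdown arrays 10.42 ± 0.061 (SD, n = 3), a log2 fold change of 0.43 (SE 0.060, 95% confidence interval 0.29 to 0.57, limma adjusted p = 0.0185), or 35.0% more signal. Nfil3 kept its call in 14 of 16 alternatives and lost it without control replicate 2 (0.118) or knockdown replicate 3 (0.116), within a range of 0.000448 to 0.118.

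**Figure D2:**
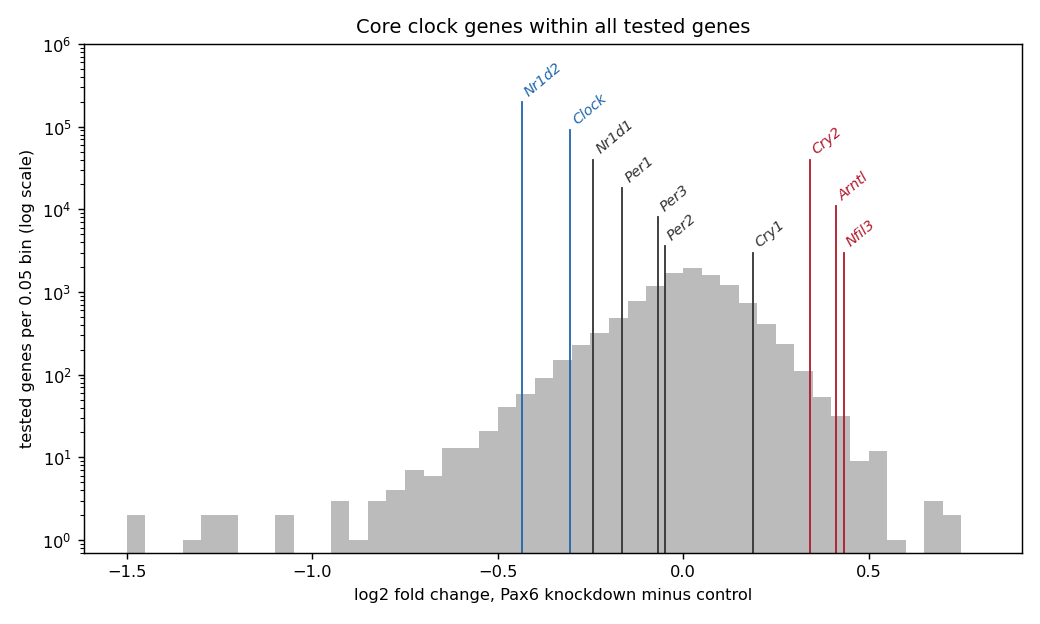
Number of tested genes (vertical axis, log scale) by log2 fold change, knockdown minus control (horizontal axis, bins of 0.05), for all 11424 genes, with vertical lines at the 10 core clock genes (red higher and blue lower at 10% FDR, black not past it). Line height carries no value. Nfil3 (0.43) and Arntl (0.41) stand near the upper end of the distribution, and Nr1d2 (-0.44) within its lower tail.

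Arrays that share a replicate number were also compared pair by pair, since their deviations from the group means correlated. All 3 pair differences had the same sign for 9 of the 10 core genes, against 49.7% of all tested genes, and Per3 was the exception (0.043, -0.24 and -0.007). The differences of pairs 1, 2 and 3 were 0.47, 0.41 and 0.42 for Nfil3 and -0.41, -0.48 and -0.42 for Nr1d2. For Arntl they were 0.48, 0.33 and 0.42, and for Cry2 0.39, 0.29 and 0.35. Clock was less even, at -0.21, -0.51 and -0.19, with the largest fall in pair 2. Groups that did not overlap were found for 7 of the 10 genes (Arntl, Clock, Per1, Cry2, Nr1d1, Nr1d2 and Nfil3), against 25.6% of all tested genes.

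The share of the variation among the 6 arrays that lay between the groups differed widely within the loop. It was 97.7% for Cry2, 96.8% for Nfil3, 89.7% for Nr1d2, 84.6% for Arntl, 82.4% for Nr1d1 and 74.99% for Clock. For Per3 it was 12.8%, with 45.4% between replicate numbers, and for Per2 it was 38.6%, with 44.0% between numbers. Cry1 had 54.8% between groups and 32.9% between numbers. With the replicate number as a block, 3 core genes were higher and 3 lower at 10% FDR, Nr1d1 being the one added, against 17.9% of all tested genes called in that fit. Cry1 then missed the threshold narrowly, at a limma adjusted p of 0.10038.

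The wider clock was described with a list of 42 further genes, of which 37 could be read and 33 were tested. By limma at 10% FDR 2 were higher, 1 was lower and 30 did not pass, where 6.67% of all tested genes were called in either direction. Their median absolute log2 fold change was 0.085, beside 0.086 over all tested genes. The called genes were the kinase genes Csnk1e and Gsk3b and the repressor gene Id2. Groups did not overlap for 10 of the 33, against 25.6% of all tested genes, and all 3 pair differences had the same sign for 20 of them, against 49.7%. Estimates were above 0 for 23 of the 33, and for 6342 of the 11424 tested genes.

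Kinases that phosphorylate clock proteins held both rises, 2 of 6 tested, where 2.79% of all tested genes were called higher. All 6 estimates were above 0. This list too was chosen with earlier results of these data known, so these counts are no independent evidence. Csnk1e, casein kinase 1 epsilon, which marks PER proteins for degradation, lay at 12.16, 12.13 and 12.14 in the controls and at 12.39, 12.36 and 12.38 in the knockdown. Both groups were tight, and 99.2% of its variation lay between them. The log2 fold change was 0.24 (SE 0.054, limma adjusted p = 0.0650). Gsk3b, glycogen synthase kinase 3 beta, which phosphorylates several clock proteins including REV-ERB alpha, lay at 11.57, 11.60 and 11.63 in the controls and at 11.90, 11.82 and 11.86 in the knockdown. Its log2 fold change was 0.26 (SE 0.0575, limma adjusted p = 0.0578). Both calls were lost without any 1 of 5 arrays, being kept only without knockdown replicate 2, and with no low-value filter, the 25th percentile filter or the variance filter, with adjusted p up to 0.318 for Csnk1e and 0.272 for Gsk3b.

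The outputs and inputs of the loop gave 1 fall and 0 rises among 7. Of all tested genes 3.88% were called lower and 2.79% higher. Id2, an inhibitor of basic helix-loop-helix factors, lay at 11.32, 11.29 and 11.14 in the controls and at 10.67, 10.76 and 10.92 in the knockdown, without overlap. Its log2 fold change was -0.46 (SE 0.085, limma adjusted p = 0.0371), and omitting control replicate 1, control replicate 2 or knockdown replicate 3 ended the call, as did the variance filter (up to 0.178). Wee1, a kinase that delays entry into mitosis, was named after its values were seen and did not pass (log2 fold change 0.20, SE 0.062, limma adjusted p = 0.135). Its groups did not overlap. With the replicate number as a block Wee1 passed (adjusted p = 0.078), in a fit that called 17.9% of all tested genes. The PAR bZIP activators that share the D-box with NFIL3 gave 0 calls of 3 by limma, with 1 (Tef) at an unadjusted p under 0.05. Where 6.67% of all tested genes were called, 0 of 3 does not set these activators apart. Tef had the lowest p of them, lying at 9.62, 9.29 and 9.45 in the controls and at 9.34, 9.11 and 9.23 in the knockdown, with overlapping groups. Its log2 fold change was -0.23 (SE 0.098, limma adjusted p = 0.265). Tef passed with the replicate number as a block (adjusted p = 0.0442) and with array weights (0.0579). It did not pass in 13 of 15 alternatives, which include all 6 fits with 1 array left out. The estimates of Dbp and Hlf were 0.098 and -0.064.

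The other roles gave 0 calls by limma, with 1 gene (Fbxw11) at an unadjusted p under 0.05. They held 1 to 8 tested genes each. Where 6.67% of all tested genes were called, 0 calls do not set such small groups apart. Among 5 further repressors Bhlhe40, which competes for E-boxes, had the lowest p (log2 fold change 0.15, SE 0.068, limma adjusted p = 0.291). Of 2 protein turnover genes Fbxw11, a ubiquitin ligase subunit for PER proteins, had 0.17 (SE 0.061, adjusted p = 0.185), and of 8 co-regulators the demethylase gene Kdm5a had 0.20 (SE 0.12, adjusted p = 0.449). The BMAL1 paralog gene Arntl2 was at 0.01 (SE 0.15) and the activating receptor gene Rorb, which competes with REV-ERB, at 0.014 (SE 0.099), and the sign of both changed when single arrays were left out. Rora, Prkaa2, Fbxl21 and Usp2 lay under the low-value filter, and the genes of the list with no probe set of their own were not analysed here.

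**Figure D3:**
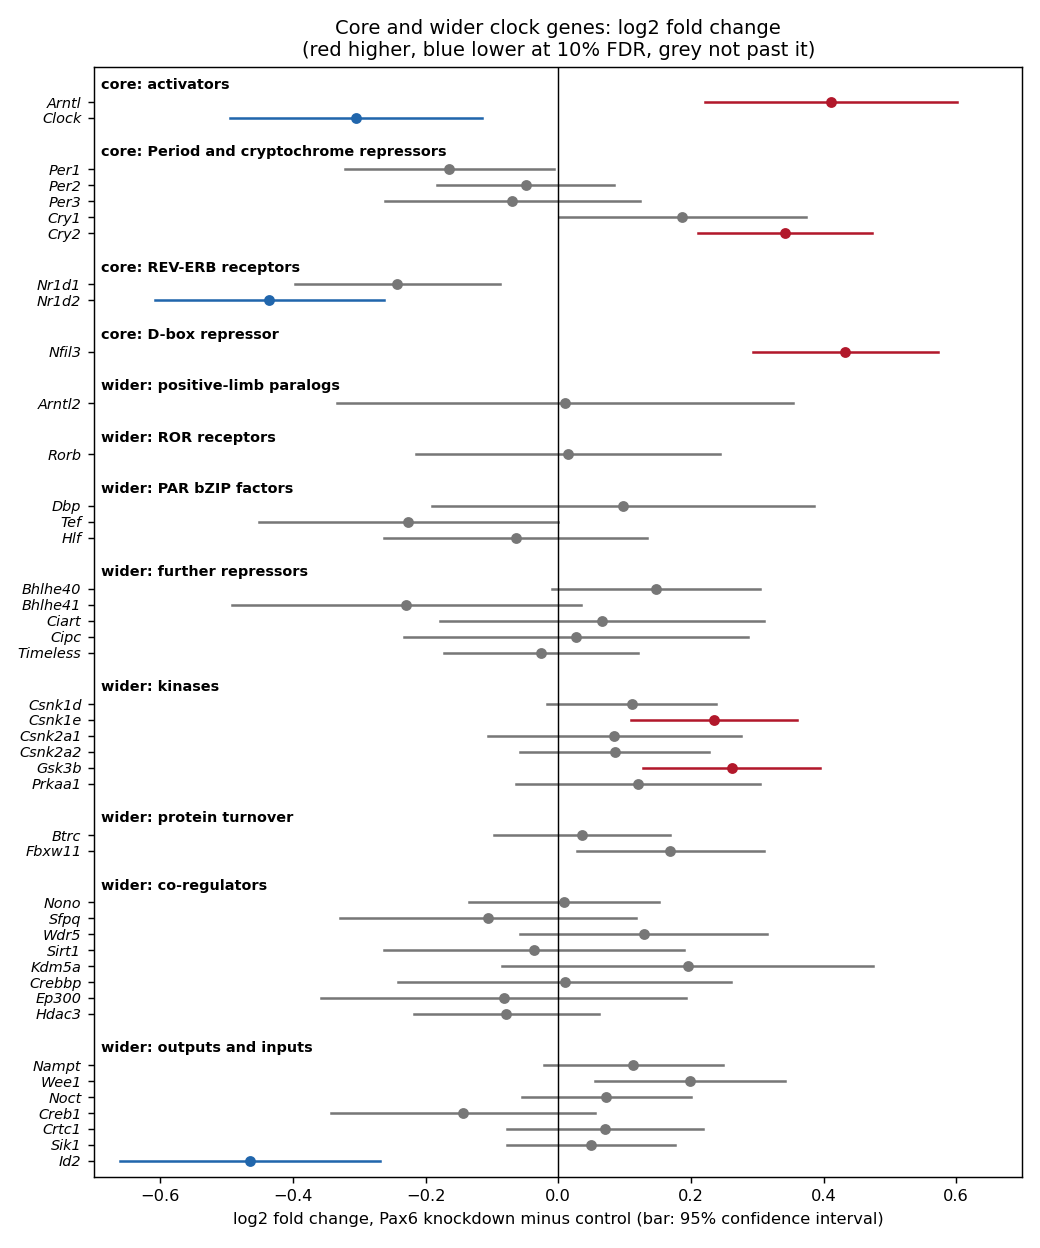
Log2 fold change, knockdown minus control (horizontal axis), of the 10 core and 33 wider clock genes (vertical axis, grouped by role). Points are limma estimates and bars their 95% confidence intervals, in red for genes higher and blue for genes lower at 10% FDR and grey for the rest. The coloured points among the core genes are Arntl, Cry2, Nfil3, Clock and Nr1d2, and among the wider genes Csnk1e, Gsk3b and Id2.

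**Figure D4:**
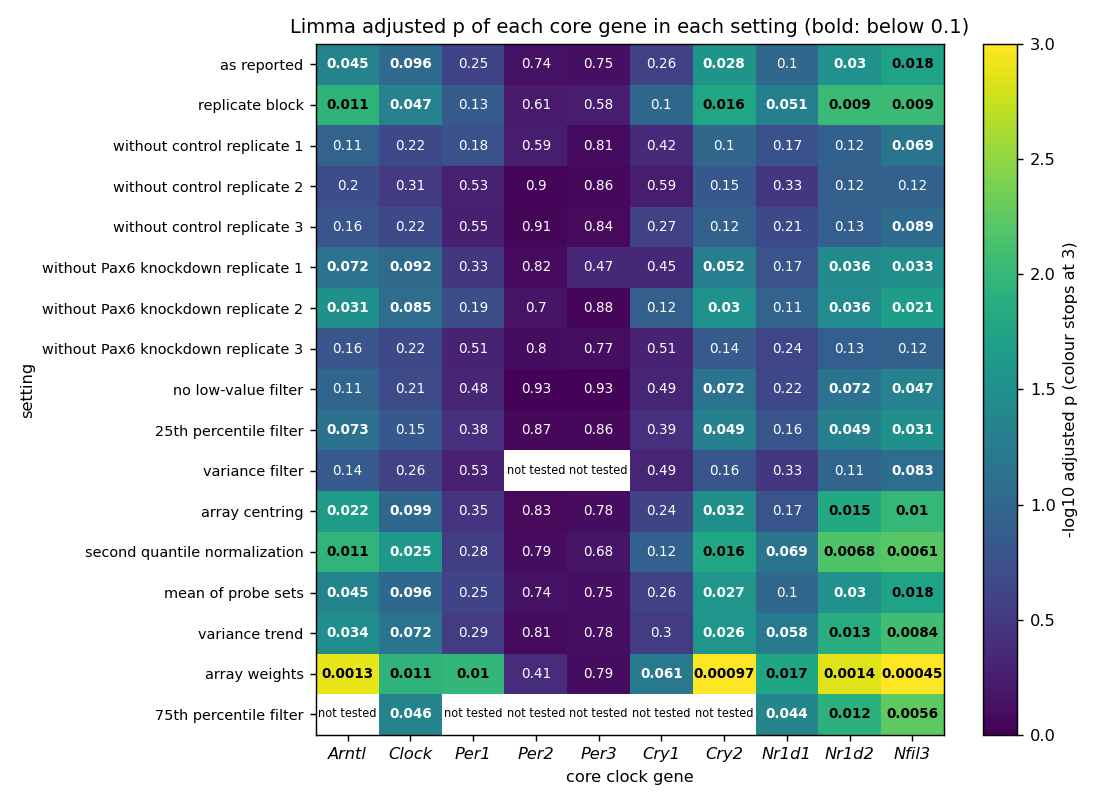
Limma adjusted p (number in each cell, colour as -log10) of each core clock gene (horizontal axis) as reported and in 16 alternative settings (vertical axis), with values below 0.1 in bold and cells reading not tested where a filter removed the gene. Nfil3 is bold in all but 2 of the alternatives, Nr1d1 turns bold in 5, and Per2 and Per3 are bold in none.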

How the data were processed

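The authors deposited 1 log2 value per probe set and array (Affymetrix Mouse Gene 1.0 ST), made with RMA background correction and quantile normalization. Tool versions and the annotation build are not given in the sources used here. RMA compresses small signals, and quantile normalization hides a change in total RNA. The table held 35556 probe sets and 0 missing values. Genes were named through the platform annotation and a RefSeq table of GRCm38.p6 (21789 probe sets with 1 symbol, 1621 with several, 12146 with none), and the probe set with the highest mean was kept per gene. A gene was tested if above the array-wide median on at least 3 of 6 arrays. Limma 3.58.1 in R 4.3.3 (lmFit and eBayes, two-sided, Benjamini-Hochberg over 11424 tested genes) compared 3 knockdown with 3 control arrays at the study's 10% FDR. No array was a copy of another (at most 20 identical values), and the number of arrays limits the precision.

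Deviations from the group means correlated at 0.57, 0.32 and 0.23 within replicate numbers 1, 2 and 3. Each is above 0.1, and on that basis arrays of 1 number were treated as pairs. Among arrays of different numbers, control replicate 3 and knockdown replicate 2 also passed 0.1 (0.18), close to the 0.23 of number 3. The other unmatched correlations lay between -0.40 and 0.056. The pairing rests on the values, as no label says what a number marks.

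The members and lists were chosen with earlier results of these data known. Named genes were the 10 members, wider genes past 10% FDR or, in a role with none, that with the lowest p, Pax6, and the 3 genes nearest in pattern to the member of lowest p. Alternatives were the replicate block, each array left out, 4 other filters, 2 rescalings, the mean of probe sets, a variance trend, array weights (whose estimation did not fully converge) and 5% FDR.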

Additional observations from a re-analysis of the deposited data

How the results depend on the processing

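The 5 called core genes kept their direction in every alternative that tested them, and their calls depended on single arrays and on the filter. The replicate block, the other filters, the mean of probe sets, the variance trend and 5% FDR leave these estimates unchanged by construction. Direction could therefore change only with an array left out, a rescaling or array weights. Core genes higher numbered 3 as reported, 0 to 3 with 1 array left out, 2 with no low-value filter, 4 with array weights (Cry1 added), and 1 with the variance filter or with the 75th percentile filter, which tested only Clock, Nr1d1, Nr1d2 and Nfil3. Core genes lower numbered 2 as reported, 0 to 2 with 1 array left out, 1 with no low-value filter, the 25th percentile filter or 5% FDR, 0 with the variance filter and 4 with array weights. The replicate block, the second quantile normalization and the variance trend each gave 3 higher and 3 lower, and the 75th percentile filter 3 lower. Wider genes higher numbered 2 as reported, 0 to 2 with 1 array left out, 3 with the replicate block (Wee1 added) or after the second quantile normalization, 0 with no low-value filter, the 25th percentile filter, the variance filter or 5% FDR, 4 with the 75th percentile filter and 7 with array weights. Wider genes lower numbered 1 as reported, 0 to 1 with 1 array left out, 2 with the replicate block, 0 with the variance filter and 3 with array weights. Where a filter tests more genes, the adjustment is over more genes. Otherwise the cause was not tested.

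Over all tested genes the calls were 319 higher and 443 lower as reported. They were 1024 and 1018 with the replicate block, 601 and 782 after a second quantile normalization, 2639 and 1600 with array weights, 529 and 517 with the 75th percentile filter, 68 and 177 with no low-value filter, 130 and 259 with the 25th percentile filter, 25 and 111 with the variance filter, and 101 and 213 at 5% FDR. Leaving out 1 array gave 7 to 820 higher and 43 to 465 lower.

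Of 152 alternative values of single core genes, 119 stayed on the same side of the threshold with the same sign, 25 lost a call, 7 gained one and 1 changed sign. That one was Per3, between -0.13 and 0.018 with 1 array left out. In the settings that leave the estimates unchanged, named above, the sign was fixed in advance. Arntl2 changed sign (-0.13 to 0.19 with 1 array left out), and so did Rorb (-0.057 to 0.11, and -0.046 with array weights). The replicate block lost no call among the genes named and added Nr1d1, Tef and Wee1. The median of all tested genes shifted by 0.017 as reported, 0.021 after array centring and 0.013 after the second quantile normalization.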

Other observations

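The genes nearest in pattern to Nfil3, the core gene of lowest p, were found by Pearson correlation over the 6 arrays, which mostly follows the difference between the groups. They were Car6, a secreted carbonic anhydrase (r = 0.998), Yif1b, a membrane trafficking factor (r = 0.997), and Lrrc75a (r = 0.996), with log2 fold changes of 0.74, 0.37 and 0.30. With the group means subtracted, the nearest were Mtrex, a helicase of the nuclear exosome, Akr1c12 and Gpatch2 (r from 0.998 to 1.00), with log2 fold changes of 0.07, 0.11 and 0.0145. These correlations rest on 6 arrays and are descriptions. They were picked as the highest among many genes, so an r near 1 comes partly from that choice. Subtracting the group means also leaves fewer free values.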
